A study of Mus musculus with 3 samples.

Results

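RXRα and RARα binding was examined at 9 orphan nuclear receptor genes of the mouse liver, namely Nr0b2, Nr2f1, Nr2f2, Nr2f6, Nr2c1, Nr2c2, Rora, Esrra and Nr4a1. The genes were chosen by name, with earlier results of these data known. Binding was read within 10 kb of the gene start and over the gene body. They are 9 of the 22367 protein-coding genes annotated for this genome build outside the mitochondrial chromosome.

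Liver chromatin of male wild type mice of the strain C57BL/6 was used, and the labels give their age as 3 months. There were 3 libraries, of which 1 was precipitated with an anti-RXRα antibody, 1 was input chromatin, and 1 was precipitated with an anti-RARα antibody. With 1 library per antibody there was no replicate, so every value describes these libraries, no difference was tested, and each interval covers counting error only. How many mice entered a library is not given in the sources used here, and whole liver mixes hepatocytes with other cell types.

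Nuclear receptors are transcription factors that usually bind DNA through copies of a short half-site, and an orphan receptor is one whose natural ligand was unknown or disputed when it was named. RXRα is the common partner of many ligand-regulated receptors, among them RARα, the receptor for retinoic acid. Several orphan receptors recognize the same half-sites as RXRα heterodimers or, as SHP does, bind other receptors directly, and many of their genes have roles in bile acid, lipid and energy metabolism in the liver.

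For RXRα and input, the signal in a 32 bp bin is the number of extended reads that overlap it, and a read covers 5 bins. The RXRα track summed to 9.99994 M reads and the input track to 9.99929 M, and the RARα peak list holds no reads from which a depth could be computed. The paper states a larger number of uniquely mapped reads for RXRα than its track sums to and also gives a depth for RARα. The reads and counting intervals here are those of the deposited tracks. An RXRα region is a run of bins with at least 20 times the larger of the local input and the mean input of 0.603 per bin, bins being joined within 200 bp. At the mean input, 13 reads were the fewest that reached this threshold. A RARα peak was counted when its score was greater than 20 and its summit was within the stated distance. As a check of the labelled tissue, 12 of 12 hepatocyte marker genes had an RXRα region within 10 kb and 11 had a RARα peak with an RXRα region at the same place. Among 21 markers of other cell types, 9 had an RXRα region and 2 had both at the same place. Over all protein-coding genes the shares were 39.8% and 23.5%. The part of the other cell types in the signal was not tested.

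Sequences under RXRα signal are shown first. They are, for each gene shown, the region with the highest bin ratio among those whose window held no annotated exon, together with the promoter region of Nr0b2 and regions at Nr2c1 and Rora with a repeat of half-sites. They are not always the tallest signals of a gene. Nr2c2 is not shown, since its strongest region covers an exon. Its window at +744 bp, which held no exon and 0 half-sites, was also left out. Each window reaches 100 bases to either side of the centre of the bin that most RXRα reads overlapped, and is given on the plus strand of NCBI37/mm9 in lower case. Capitals mark half-sites on either strand, which were AGGTCA, its variant GGGTCA, and the same pair with TT in place of GT (the words AGTTCA and, last, GGTTCA). The distance from the gene start, downstream positive, is given in the name.
Nr0b2 at +4197 bp, chr4:133113388-133113588: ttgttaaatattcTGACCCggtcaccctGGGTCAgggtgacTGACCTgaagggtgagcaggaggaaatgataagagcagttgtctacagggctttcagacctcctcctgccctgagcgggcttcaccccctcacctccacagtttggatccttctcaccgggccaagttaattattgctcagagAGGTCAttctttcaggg
Nr0b2 at −283 bp, chr4:133108908-133109108: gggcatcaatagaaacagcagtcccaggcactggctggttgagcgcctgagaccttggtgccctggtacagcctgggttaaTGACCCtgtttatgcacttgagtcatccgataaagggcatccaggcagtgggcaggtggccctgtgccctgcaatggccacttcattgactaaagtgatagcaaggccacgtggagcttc
Nr2f6 at −1613 bp, chr8:73907372-73907572: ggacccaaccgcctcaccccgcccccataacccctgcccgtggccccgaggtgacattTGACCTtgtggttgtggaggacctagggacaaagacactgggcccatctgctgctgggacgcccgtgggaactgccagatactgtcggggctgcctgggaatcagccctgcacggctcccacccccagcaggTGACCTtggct
Nr2f2 at +10293 bp, chr7:77501228-77501428: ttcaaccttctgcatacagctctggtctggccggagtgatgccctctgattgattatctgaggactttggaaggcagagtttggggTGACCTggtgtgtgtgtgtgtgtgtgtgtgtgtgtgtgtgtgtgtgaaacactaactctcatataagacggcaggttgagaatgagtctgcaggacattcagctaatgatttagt
Nr2c1 at +11744 bp, chr10:93622412-93622612: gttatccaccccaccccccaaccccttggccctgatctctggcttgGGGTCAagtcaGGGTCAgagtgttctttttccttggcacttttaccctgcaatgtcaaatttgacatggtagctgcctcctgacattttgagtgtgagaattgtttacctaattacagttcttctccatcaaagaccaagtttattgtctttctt
Nr2c1 at +23520 bp, chr10:93634188-93634388: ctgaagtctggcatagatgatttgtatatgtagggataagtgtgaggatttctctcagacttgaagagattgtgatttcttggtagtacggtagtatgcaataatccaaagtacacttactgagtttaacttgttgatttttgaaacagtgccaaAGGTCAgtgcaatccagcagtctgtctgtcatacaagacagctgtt
Esrra at −385 bp, chr19:6996588-6996788: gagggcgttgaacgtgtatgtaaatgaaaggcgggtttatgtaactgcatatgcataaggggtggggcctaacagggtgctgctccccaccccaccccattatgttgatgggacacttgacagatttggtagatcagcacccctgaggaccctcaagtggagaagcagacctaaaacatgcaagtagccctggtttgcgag
Rora at +527863 bp, chr9:69029356-69029556: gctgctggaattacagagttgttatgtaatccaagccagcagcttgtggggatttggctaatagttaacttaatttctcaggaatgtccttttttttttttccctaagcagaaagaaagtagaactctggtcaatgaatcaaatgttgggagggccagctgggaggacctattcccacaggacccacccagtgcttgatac
Rora at +659703 bp, chr9:69161196-69161396: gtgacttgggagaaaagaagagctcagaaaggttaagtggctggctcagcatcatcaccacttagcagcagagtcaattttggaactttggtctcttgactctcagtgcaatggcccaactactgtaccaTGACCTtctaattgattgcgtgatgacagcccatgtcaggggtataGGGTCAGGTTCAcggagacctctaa
The windows differed in their half-sites. The window downstream of Nr0b2 held 4 and the one at its promoter 1. At Nr2c1, the +11744 bp window held 2 half-sites in the same direction with 5 bases between them (DR5), the arrangement that RXR and RAR heterodimers are known to prefer. By its reads in 1 kb this region was weak, with 33.8 against 14.6 (2.31, 95% interval 1.20 to 4.48), although its highest bin ratio was 39.8. It was overlapped by 0 RARα peaks of any score. The windows at Esrra −385 bp and Rora +527863 bp held 0 half-sites.

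RXRα was present near most of these genes, and each gene with RXRα near its start also had RARα at such a place. An RXRα region lay within 10 kb of the start of 6 of 9 genes, namely Nr0b2, Nr2f2, Nr2f6, Nr2c1, Nr2c2 and Esrra, against 39.8% of all protein-coding genes. A RARα peak lay within 10 kb of 7 of 9, the same genes and Nr2f1, against 52.2%. Co-localization, for which 25% of the narrower interval had to be shared, was found at 6 of 9, against 23.5%. When the gene body was added, the counts became 7 for RXRα (47.9% of all genes), 8 for RARα (57.9%) and 7 for co-localization (27.2%), the gene gained in each case being Rora. The 9 genes are few and these counts are a description. Nr4a1 had neither an RXRα region nor a counted RARα peak.

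**Figure D1:**
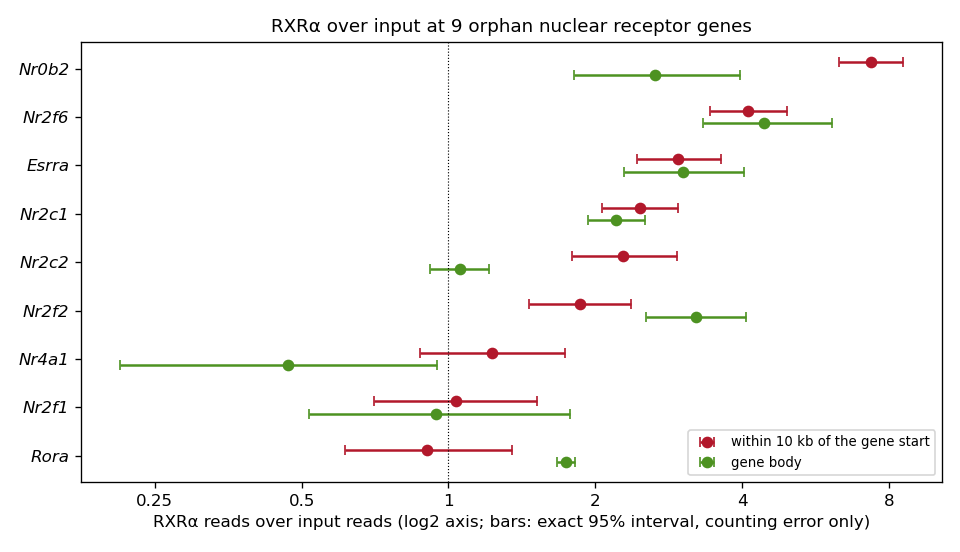
RXRα reads divided by input reads within 10 kb of the gene start and over the gene body, on a log2 axis, with exact 95% intervals for counting error and 1 library per antibody. Nr0b2 had the highest value near the start, 7.35, and Rora was below 1 there but at 1.74 over its body.

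Within 10 kb of the start, Nr0b2 had 1459.8 reads in the RXRα library and 198.6 in input. The ratio was 7.35 (95% interval 6.32 to 8.55), at the 99.9th percentile of all genes. Nr2f6 followed with 622.4 and 151.4 reads, a ratio of 4.11 (3.44 to 4.95) at the 96.4th percentile. Esrra had 408.8 and 138.4 reads, a ratio of 2.95 (2.44 to 3.62). These 3 genes were above 90% of all protein-coding genes, whose median ratio was 1.09. Nr2c1 had a ratio of 2.47 (2.06 to 2.96), Nr2c2 one of 2.28 (1.80 to 2.94) and Nr2f2 one of 1.86 (1.47 to 2.37). From Esrra to Nr2f2, the intervals of neighbours in the order overlapped, whereas those of Esrra and Nr2f2 did not. The interval of Nr0b2 lay above all others, and those of Nr2f6 and Esrra overlapped narrowly. For the remaining genes the interval included 1, with 80 against 65 reads at Nr4a1 (1.23, 0.876 to 1.73), 58 against 56 at Nr2f1 (1.04, 0.705 to 1.52) and 51.6 against 57 at Rora (0.905, 0.614 to 1.35). Input itself was uneven among the genes, from 56 reads at Nr2f1 to 198.6 at Nr0b2.

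**Figure D2:**
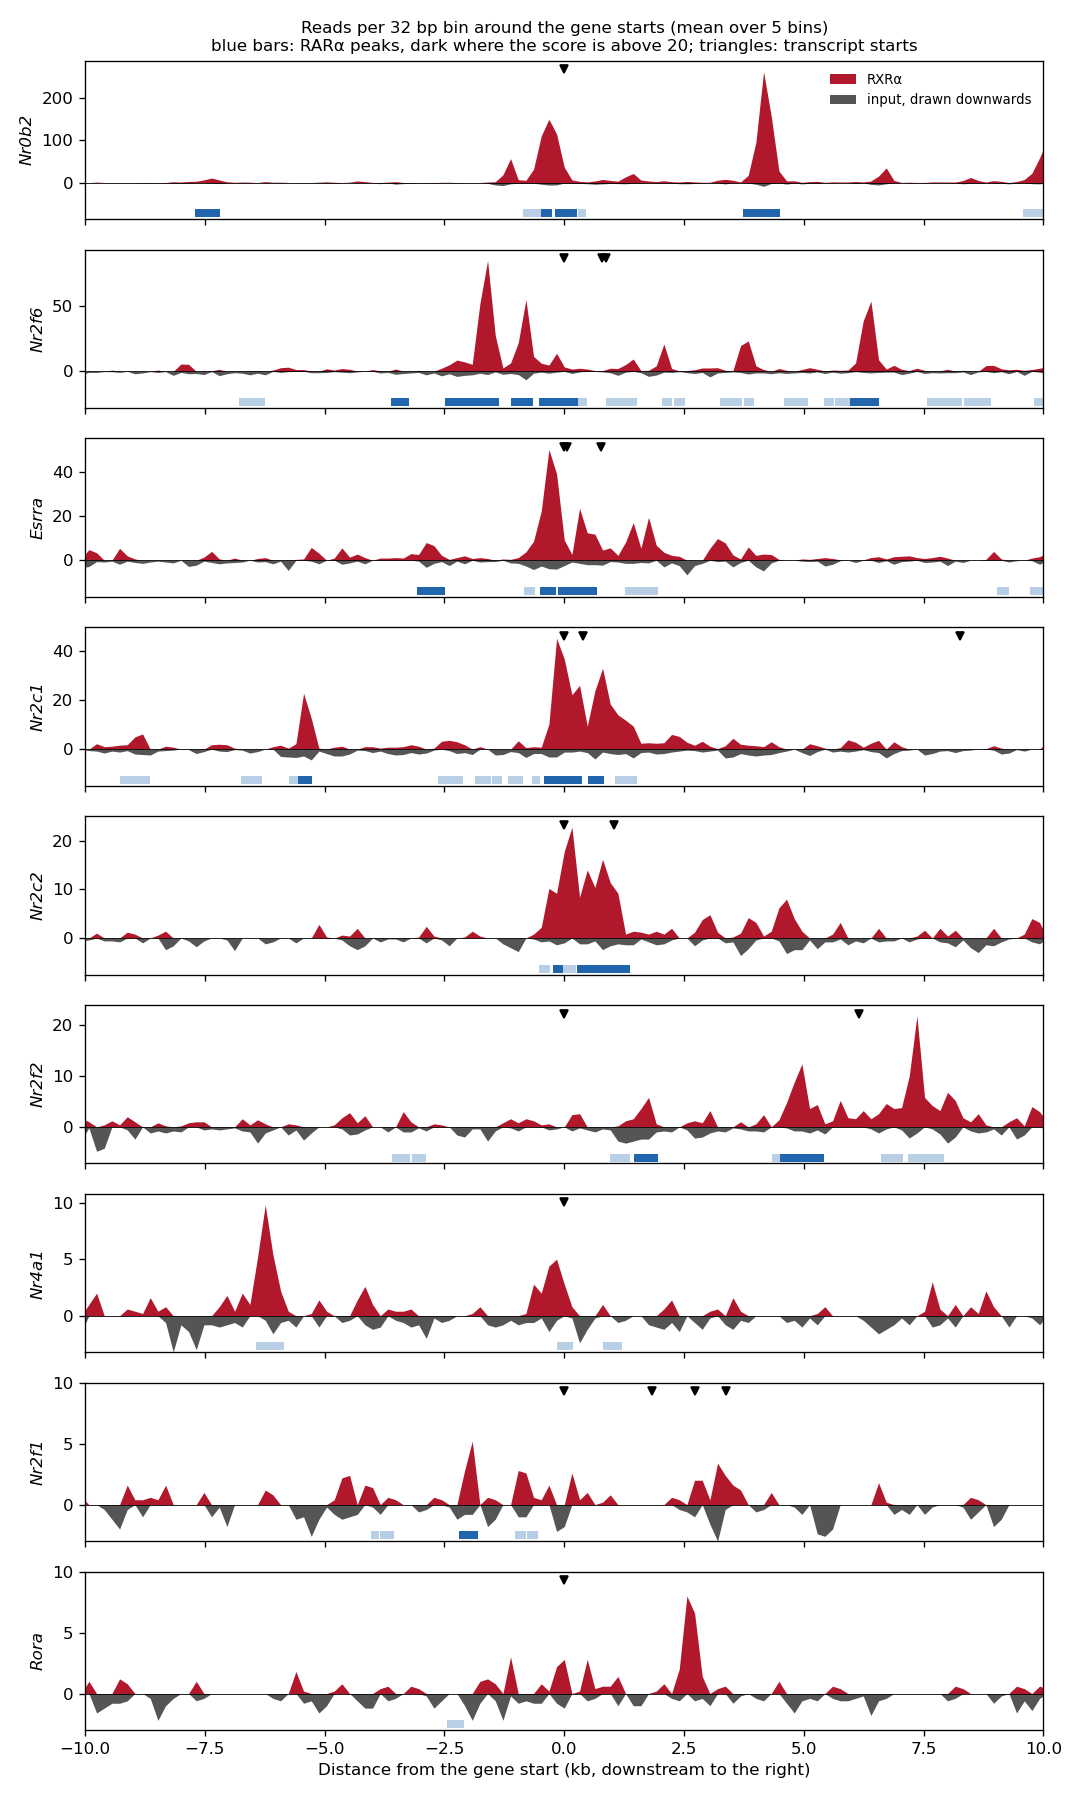
RXRα signal (upwards) and input signal (downwards) as reads per 32 bp bin, averaged over 5 bins, within 10 kb of the start of each gene, with RARα peaks as bars (dark where the score is greater than 20) and transcript starts as triangles. The vertical scale differs between genes. Nr0b2 shows a promoter peak and a taller peak downstream of the gene. At Esrra, Nr2c1 and Nr2c2 the highest signal lies within 1 kb of the gene start, and the Nr2c1 transcript start at +8263 bp has none of it.

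Nr0b2 encodes SHP, a receptor without a DNA-binding domain that represses other receptors and is a known feedback regulator of bile acid synthesis. The gene is on the plus strand at chr4:133109291-133112451 and spans 3161 bp, and 6 RXRα regions lay around it. The promoter region, chr4:133108641-133109344, reached 161 RXRα reads against 8 input reads in its tallest bin at −283 bp. In the 1 kb around the bin of highest ratio it held 402.6 RXRα and 20.8 input reads, a ratio of 19.4 (95% interval 12.4 to 31.3). A second region, chr4:133113281-133113792, lay outside the annotated gene, downstream of its 3′ end, and was taller. Its tallest bin at +4197 bp held 285 RXRα and 10 input reads, and its 1 kb window held 555.8 and 22 reads, a ratio of 25.3 (16.5 to 40.7). The weaker regions were at −1051, +1445, +6789 and +8453 bp. At the 10 kb limit RXRα rose again, to a mean of 100 against 0.4 input reads per bin at +10.08 kb. A RARα peak with a score of 17 at +9794 bp was co-localized there with an RXRα region that is not among the 6. RARα was co-localized with both strong regions, with scores of 59 at +39 bp and 22 at −376 bp in the promoter and 28 at +4194 bp downstream. Another RARα peak, with a score of 40 at −7446 bp, had no RXRα region and was nearest to the start of Nudc. Over the short gene body itself, the ratio was lower, 2.65 (1.81 to 3.97), with 1 region there, in an intron.

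The COUP-TF group was unequal. Nr2f1 and Nr2f2 encode COUP-TFI and COUP-TFII, and Nr2f6 encodes the related EAR2. These receptors bind repeats of the half-site in many spacings and can compete with RXR heterodimers for them. At Nr2f1 (chr13:78328234-78339018, minus strand), no bin reached the threshold, and the highest bin had 7 RXRα reads over 1 input read at −1990 bp. A RARα peak with a score of 33 was found at −2002 bp, so the highest RARα score and the highest RXRα bin were at the same place. RXRα was 8 against 2.4 input reads over that peak. Across its 4 transcript starts no start had a 2 kb window of more than 14 RXRα reads, and each interval with a ratio included 1.

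Nr2f2 (chr7:77496832-77511621, minus strand) had 2 transcript starts. Within 1 kb of the outer start there were 9.2 RXRα and 4.8 input reads (1.92, 95% interval 0.542 to 6.84). Within 1 kb of the inner start, 6142 bp downstream, there were 36.2 and 4.8 reads (7.54, 2.82 to 23.5). The 2 intervals overlap, so the counts do not separate the starts. All 3 RXRα regions were intronic, at +4917, +7413 and +10261 bp, and the last is just beyond the 10 kb limit. It had the highest bin ratio, 42.0, and the most reads, 98.8 against 12 in 1 kb (8.23, 4.52 to 16.5). By the ratio in 1 kb it was level with the region at +7413 bp, which had 49.2 against 5.8 reads (8.48, 3.50 to 23.3). The highest RARα score within 10 kb of any of the 9 gene starts was 90, at +4966 bp of Nr2f2. It was co-localized with the region at +4917 bp, whose highest bin ratio was the lowest of these regions (21.6, from 13 RXRα reads). In 1 kb that region was level with the others, with 35.8 against 4.4 reads (8.14, 3.23 to 34.8). A second RARα peak, with a score of 47 at +1706 bp, had only 10.2 RXRα against 6.4 input reads.

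Nr2f6 (chr8:73898022-73905859, minus strand) had 7 RXRα regions and 8 RARα peaks in 10 kb, of which 4 were co-localized. The strongest region upstream was chr8:73907297-73907648, with 178.2 against 11 reads in 1 kb (16.2, 95% interval 8.83 to 33.0) and a RARα score of 41. The highest bin ratio, 111 from 67 RXRα reads and 0 input reads, was at +6323 bp in a region nearest to the start of the neighbouring gene Ocel1, with 110.2 against 4.8 reads in 1 kb (23.0, 9.15 to 69.1). That region and the one at +3731 bp overlap the neighbour, and to which gene they belong was not tested. The window at +3731 bp held the only direct repeat with 1 base between its copies (DR1) among all regions of these genes, at chr8:73902153-73902165 within a UTR of Ocel1: gccctttgAGGTCAGAGGTCAggcggggc on the plus strand, with the half-sites and the spacer between them in capitals. At the promoter itself the ratio in 1 kb was lower, with 109.4 against 14.2 reads around −685 bp (7.70, 4.45 to 14.7). Around −173 bp there were 35.8 against 5 reads (7.16, 2.82 to 23.5). Both intervals overlap that of the strongest upstream region.

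Nr2c1 and Nr2c2 encode the testicular receptors TR2 and TR4, which form a heterodimer with each other and bind direct repeats of the half-site. At both genes the strongest signal within 10 kb was at the gene start. Within 1 kb of the innermost Nr2c1 start, 8263 bp downstream, RXRα was below input, 2 against 11.2 reads (0.179, 95% interval 0.0196 to 0.833). Nr2c1 (chr10:93610768-93659956, plus strand) had regions at −32 and +736 bp with a highest ratio of 44.0 each. They held 146.8 against 11.4 reads (12.9, 95% interval 7.25 to 27.4) and 127 against 12.2 reads (10.4, 5.85 to 21.0) in 1 kb. The RARα peak with the highest score there, 69 at −163 bp, was not co-localized by the 25% rule, although RXRα was 74.4 against 8.4 reads over it, and the next peak, 46 at +112 bp, was. A further 5 regions were intronic beyond 10 kb. The highest bin ratio among them, 83.0, was at +23520 bp, without a RARα peak and with 80 against 13 reads in 1 kb (6.15, 3.40 to 12.1). The region at +13472 bp was level with it in 1 kb, with 71.6 against 11.4 reads (6.28, 3.45 to 13.7). It was co-localized with a RARα peak of score 47.

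Nr2c2 (chr6:92041384-92123051, plus strand) had 3 RXRα regions, at +104, +744 and +1032 bp. The first was the strongest, with a highest bin ratio of 64.7 and 84 against 5.6 reads in 1 kb (95% interval of their ratio 6.17 to 39.2). RARα peaks with scores of 27, 44 and 40 were found at −119, +441 and +991 bp, and of these only the last was co-localized. A further RARα peak at +111 bp lay on the strongest region and was co-localized with it, with 38.8 RXRα against 0.6 input reads. Its score of exactly 20 left it out of the count. The gene body of 81.668 kb had 414.8 against 393.6 reads (1.05, 0.915 to 1.21), at the 53.9th percentile of all genes. That of Nr2c1 had a ratio of 2.21 (1.94 to 2.53), at the 83.9th percentile. The intervals of the pair do not overlap over the body but do overlap within 10 kb of the start.

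Esrra encodes ERRα, a regulator of mitochondrial and oxidative metabolism genes. The gene lies on the minus strand at chr19:6985467-6996303, and its RXRα signal sat around the start, with 193.2 against 29.6 reads within 1 kb of it (6.53, 95% interval 4.36 to 9.79). The 3 regions were at −417, +351 and +1855 bp, with ratios of 41.5, 29.0 and 26.5. RARα scores were 33 at −342 bp and 24 at +408 bp, both co-localized. Between them the highest score, 54 at +43 bp, was not co-localized and had 20.2 against 4 reads. The RARα score was thus highest at the start, while the RXRα signal was higher on either side of it, as its profile shows. These RARα peaks follow one another after 10 bp. The remaining RARα peak, 32 at −2782 bp, was nearest to the start of 1700019N12Rik.

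Rora encodes RORα, which binds single half-sites as a monomer and is known for its part in circadian and lipid gene regulation. It is by far the longest of these genes, 734.461 kb on the plus strand at chr9:68501593-69236053, and its signal was inside the gene, not at the outer start. The body held 5780 RXRα and 3316 input reads, a ratio of 1.74 (95% interval 1.67 to 1.82), with 36 regions, 17 RARα peaks and 11 co-localized RARα peaks. Since a longer gene offers more room for regions, the density was compared. Rora had 4.90 regions per 100 kb, against a median of 0.343 over the 200 genes longer than 500 kb and 1.59 over the genome. Among these 200 genes, whose median body ratio was 0.648, it ranked 6th by density, 5th by number of regions and 3rd by body ratio.

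The densest stretch of Rora held both inner starts. Within 10 kb of the start 635896 bp downstream there were 490.4 RXRα and 154.8 input reads (3.17, 95% interval 2.63 to 3.81), 6 RXRα regions and 5 RARα peaks with a highest score of 65. The innermost start, 693460 bp downstream, had 227.4 against 126.2 reads (1.80, 1.44 to 2.26) with 1 region and 0 RARα peaks, and the outer start had 0 of either. Within 1 kb of the innermost start RXRα was below input, 4 against 16.8 reads (0.238, 0.0576 to 0.721). Most of the 36 regions thus lay further than 10 kb from every start. In segments of 100 kb, the ratio was 0.733 (0.619 to 0.871) in the first and 2.85 (2.61 to 3.12) between 600 and 700 kb, where 14 of the 36 regions and 7 of the 17 RARα peaks lay. The segment from 200 to 300 kb was second, at 2.13 (1.90 to 2.38). The highest bin ratios were 136 at +527863 bp and 129 at +637495 bp. The region at +527863 bp held 137.2 against 6.2 reads in 1 kb (22.1, 10.2 to 63.3) and had a RARα score of 30. Although inside Rora, 26 of the 36 regions and 13 of the 17 RARα peaks were nearer to the start of Narg2 than to the outer start of Rora.

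**Figure D3:**
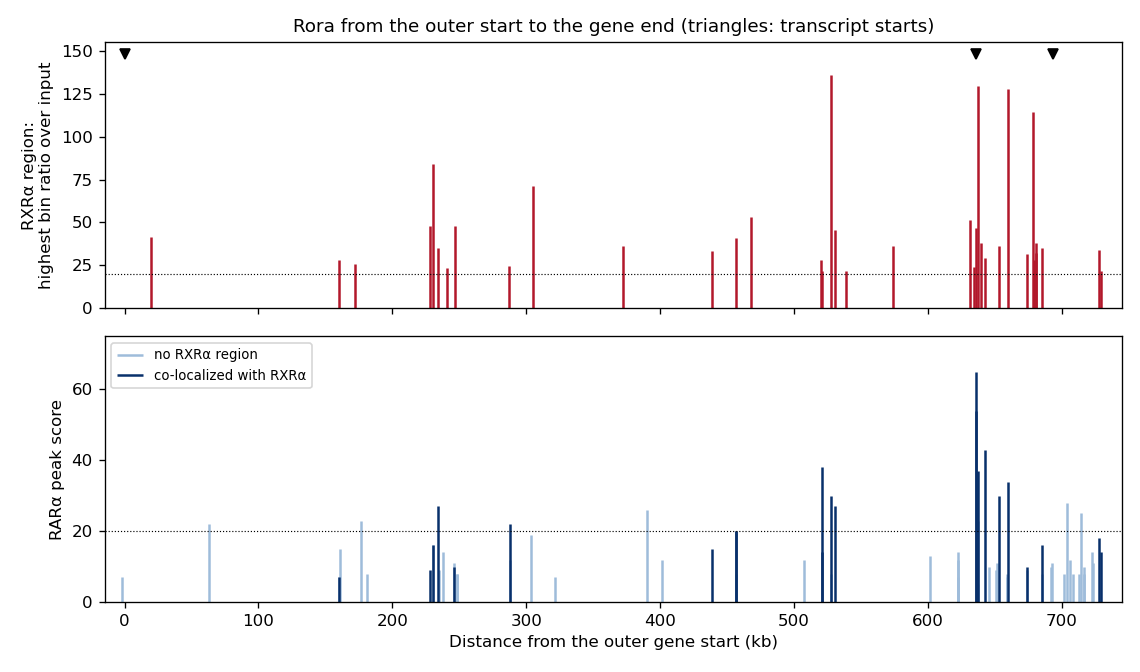
RXRα regions by their highest bin ratio over input (top) and RARα peaks by score (bottom, dark where co-localized with an RXRα region) along Rora, in kb from the outer start, with the 3 transcript starts as triangles and dotted lines at the thresholds of 20. Of the 36 regions, 14 lie between 600 and 700 kb, and none lies within 10 kb of the outer start.

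Nr4a1 encodes NUR77, an immediate early receptor that responds to many stimuli without a known need for ligand. The gene is on the plus strand at chr15:101097277-101105223. It fell just short of the threshold, with 12 RXRα reads and 0 input reads in its top bin at −6317 bp, a ratio of 19.9, and a RARα peak with a score of 16 overlapped this stretch at −6142 bp. For comparison, the weakest region counted at any of the 9 genes had a ratio of 21.6, from 13 reads. Within 1 kb of the start there were 19 against 7.8 reads (2.44, 95% interval 0.993 to 6.27). Over the gene body RXRα was below input, 12.2 against 26 reads (0.469, 0.212 to 0.947).

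Over all 9 genes there were 67 RXRα regions, of which 25 lay within 10 kb of a gene start, 50 were intronic and 13 lay within 1 kb of a transcript start. Their median highest ratio was 36.5, against 34.8 over all 42117 regions of the genome, so as single regions they were of ordinary height. In 45 of the 67 the bin of highest ratio had 0 input reads, and the ratio then depends on the RXRα reads and the mean input alone. A RARα peak of any score overlapped 44 of the 67, and one above 20 overlapped 25. Of the 67 regions, 36 were at Rora, among them 33 of the 50 intronic ones. The shares that were intronic, near a transcript start or overlapped by RARα were not computed over all regions of the genome. These counts are therefore not traits of these genes.

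Seen from RARα, 27 peaks with a score greater than 20 lay within 10 kb of the gene starts, and 14 of these (51.9%) were co-localized with RXRα, against 32.2% of all such peaks in the genome at any distance from a gene. The median score of the co-localized peaks was 30.5, against 32 for the 13 others. With the gene bodies added the order turned, with medians of 32 for 26 co-localized peaks and 26 for 21 others. RXRα over input across the peak had a median of 11.6 (range 5.42 to 30.2) at the co-localized peaks, and of 5.05 (0.50 to 18.8) at the others, so that several peaks not counted as co-localized also had RXRα signal. The list splits broad signals, and 11 of the 27 peaks were followed by another after exactly 10 bp.

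The half-site was about as frequent in the regions of these genes as in regions near gene starts. It occurred in 41 of the 67 (61.2%) within 100 bases of the centre of the bin of highest ratio. Of 15094 regions within 10 kb of any protein-coding gene start, 60.0% had it. The sets differ in position, since only 25 of the 67 lay within 10 kb of a gene start and 36 were at Rora. No comparison matched for position was made. Half-sites in the same direction 0 to 5 bases apart, or facing each other 1 base apart, occurred in 4 (5.97%), against 3.88%. These were DR0, with adjoining half-sites, at Nr0b2 and Rora, DR1 at Nr2f6 and DR5 at Nr2c1. AAAGGTCA, the site an NR4A monomer binds, occurred in 5 (7.46%), against 4.62%, and TCAAGGTCA, the site an ERR or NR5A monomer binds, in 0, against 1.5%. All letters were searched on both strands, and the longer sites contain a half-site. Around the tallest bin, a window chosen after seeing the data, the half-site count was again 41 (62.3% of all regions) and the repeats numbered 3 (4.22%), the DR0 at Nr0b2 then being outside the window. A match is a description of the letters and not of a bound site.

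The CpG content of the starts did not order the genes by RXRα. The ratio of observed to expected CpG in the 1 kb around the start was 0.259 at Nr0b2, the gene with most RXRα, and 0.996 at Nr2f6, the second. At Nr2f2 it was 0.258 at the outer start, and at Nr2f1, which had no RXRα region, it was 0.925.

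Among the 49 nuclear receptor genes examined, these 9 were spread over most of the range. By RXRα over input within 10 kb, Nr0b2 ranked 2nd after Nr1i2, the PXR gene (8.48), and Nr2f6 ranked 9th. Esrra, Nr2c1 and Nr2c2 ranked 16th, 18th and 19th, Nr2f2 28th, and Nr4a1, Nr2f1 and Rora 32nd, 37th and 39th. The median ratio was 2.28 for the 9 genes, 1.55 for 16 other orphan receptor genes, 2.11 for 18 genes of the RXRs and their ligand-bound partners, and 1.66 for 6 steroid receptor genes. An RXRα region within 10 kb was found at 10 of the 16, 12 of the 18 and 3 of the 6, and co-localization at 6, 9 and 3. The list of other orphan receptors includes Hnf4a, which also served as a hepatocyte marker.

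**Figure D4:**
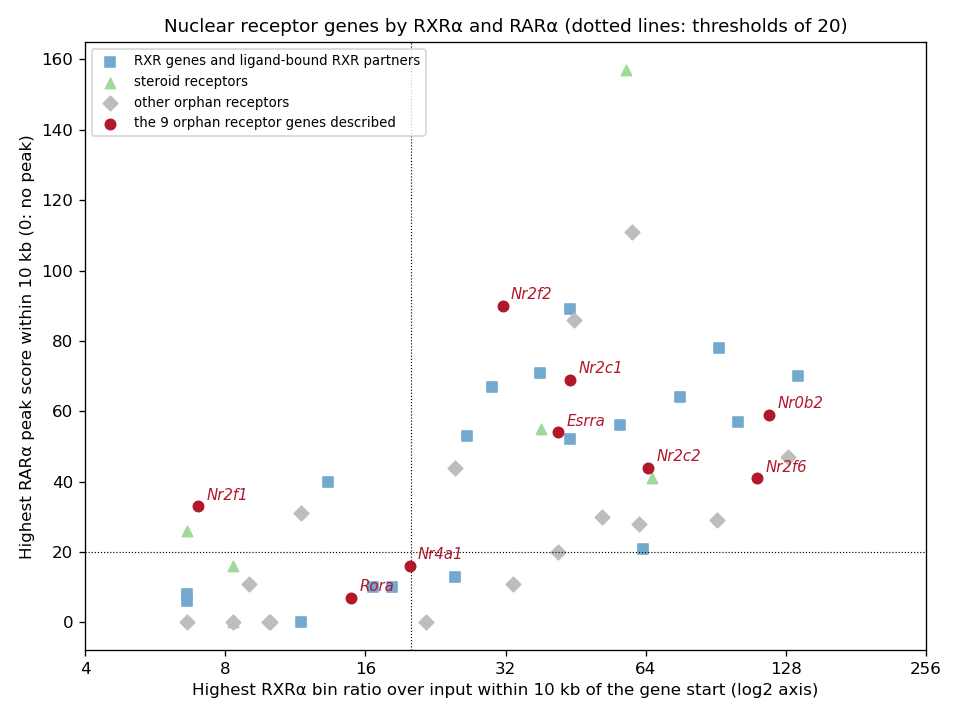
Highest RXRα bin ratio over input (log2 axis) against the highest RARα peak score within 10 kb of the start, for the 9 orphan receptor genes and 40 other nuclear receptor genes, with dotted lines at the thresholds of 20. Nr2f2 has the highest RARα score of the 9 genes, 90, at a modest RXRα ratio of 31.5, and Nr2f1 lies above the RARα threshold only.

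For each gene, the most similar of the 40 other receptor genes was taken as the nearest in log2 of the highest RXRα bin ratio and log2 of 1 plus the highest RARα score, over 3 libraries. Esrra was nearest to Rara (distance 0.100), with ratios of 41.5 and 44.0 and scores of 54 and 52. Nr2c2 was nearest to Esr1 (0.103), Nr2c1 to Rxrb (0.215), Nr0b2 to Ppara (0.228) and Nr2f6 to Nr1d2 (0.292). The other genes had no neighbour as close, with Nr2f1 nearest to Esr2 (0.341), Nr4a1 to Thra (0.427), Nr2f2 to Thrb (0.428) and Rora to Pparg (0.484).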

How the data were processed

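ChIP-seq was performed on liver chromatin with antibodies against RXRα and RARα, together with input. The authors processed the reads with CASAVA 1.4 and Bowtie and called RARα peaks with MACS. The methods name mm10 for alignment, while the labels and file headers name mm9, and all coordinates here are NCBI37/mm9. For RXRα and input, the deposited signal is whole-number coverage in 32 bp bins. Both tracks sum to about 10 M reads, which is fewer than the paper states for RXRα, and how the authors arrived at this is not given in the sources used here. For RARα, the deposited score of each peak was used as it stands, and whether it is a fold over input is not stated. The false discovery rate in percent, as the authors' peak caller gave it, reached 4.75 and was not used as a filter.

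The tracks were scaled to the same mean, and reads were counted as signal divided by 5. A ratio of 1 therefore means equal shares of the 2 libraries and is not a line of no binding. The thresholds of 20, the distance of 10 kb and the overlap of 25% follow the study's methods, and the rules on mean input and joining are choices made here. Gene starts are the outermost 5′ ends in GENCODE M1. Intervals are exact conditional binomial intervals at 95%. For read windows and gene bodies, no ratio is given unless input exceeded 3 reads. This floor was not applied to single bins or to RARα peaks, whose ratios use the larger of the input there and the mean input. No p-values were computed. The genes and lists were chosen with earlier results of these data known. Every one of the 9 genes is named, with the nearest receptor gene by binding and the nearest gene of peaks assigned elsewhere. Region calling and overlap were tested on simulated data. Alternatives covered the thresholds, scaling, score, distance, starts, overlap, gene body and merging of abutting peaks. Python 3.11.15, numpy 2.4.6, pandas 2.3.3, scipy 1.17.1, pysam 0.24.0 and matplotlib 3.10.9 were used.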

Additional observations from a re-analysis of the deposited data

How the results depend on the processing

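No read ratio whose interval excluded 1 crossed 1 under an alternative. Of the ratios whose interval included 1, that of Rora near its start went from 0.905 to 1.37 within 5 kb, 1.73 within 1 kb and 2.28 with all transcript starts. That of Nr4a1 went from 1.23 to 0.947 within 5 kb, and the body ratio of Nr2c2 from 1.05 to 0.704 without the first 10 kb. Of the counts and medians recomputed over the 9 genes, 55 stayed within 1.5 times the main count or within the counting interval and 14 did not. With a RARα score above 50, the genes with a RARα peak within 10 kb fell from 7 to 4 and those with co-localization from 6 to 2, and with the gene body added they were 5 and 3. With a score above 100 all of these counts were 0. With the mean input alone, the median of the highest bin ratio was 64.7 instead of 41.5. Within 5 kb of the start the median read ratio was 3.25 and within 1 kb 6.53, instead of 2.28, and within 1 kb the median of the highest RARα score was 30 instead of 44. When the starts of all protein-coding transcripts were used, that median was 59 and Rora joined the genes with RXRα and with co-localization, making 7 of each. Without the first 10 kb, the gene body ratio had a median of 1.82 over the 4 genes with more than 3 input reads left, instead of 2.21. An RXRα threshold of 15 added Nr4a1 (7 genes) and one of 10 added Rora as well (8 genes), while one of 30 left 4 genes co-localized within 10 kb, without Nr2f2 and Nr2c2. Choices on the body counts with other scores, on merged RARα peaks and on the window around the tallest bin were added after seeing the data.

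No paired analysis was possible because each antibody has 1 library. Nothing can be said on variation between mice, the score of RARα cannot be read as reads, and within 10 kb of the starts of Nr2f1, Nr4a1 and Rora the counting intervals include 1.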
